A study of Gossypium barbadense and Gossypium hirsutum with 72 samples.

Results

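miR482 and miR2118 were represented by 7 of the 4062 names in the deposited small RNA count table. The members were all names in which miR482 or miR2118 was followed by a letter, a hyphen or nothing. There were 4 miR482 names (miR482b, miR482b-3p, miR482c-3p and miR482d) and 3 miR2118 names (miR2118, miR2118-5p and miR2118a-3p), all among the 712 known names, the other 3350 being predicted miRNAs. Small RNA was sequenced from shoot apices of 4 field-grown cotton lines. Hai1 (normal branch, WT) and Xinhai16 (nulliplex branch, np) are *Gossypium barbadense* (Gb). Huazhong 94-3130 (WT) and line 3798 (np) are *G. hirsutum* (Gh). Normal-branch plants set flowers on fruit branches, whereas nulliplex plants carry them directly in the leaf axils of the main stem. Apices were taken from seedlings (stage 1), before squaring (stage 2, pre-squaring) and during squaring (stage 3), a square being a cotton floral bud. This gave 12 groups of 3 libraries, named from miGb1WT to miGh3np. Seedlings had 2 leaves in all 4 lines. At the pre-squaring stage the leaf number was 8 in miGb2WT, 6 in miGb2np, 6 in miGh2WT and 5 in miGh2np. At the squaring stage it was 11 in miGb3WT, 9 in miGb3np, 8 in miGh3WT and 12 in miGh3np. Each branch type within a species was 1 selfed line and the lines did not share parents, so that branch type, line and, after the seedling stage, leaf number cannot be told apart.

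miR482 and miR2118 belong to a superfamily of plant miRNAs that pair with the conserved P-loop coding region of NBS-LRR transcripts. NBS-LRR genes encode intracellular receptors that recognise pathogens. Cleavage by these miRNAs starts the production of phased secondary small RNAs, which spread silencing among related resistance genes. In cotton, miR482 is known from work on fungal infection, and in grasses miR2118 is known for its role in anthers. The ending 5p or 3p in a name states from which arm of the hairpin precursor the mature RNA comes. The members are given here by name and read number only, since the tables analysed carry no sequences.

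The libraries held 754812 to 4329247 miRNA reads, and levels are given as reads per 1000000 miRNA reads (RPM). The smallest count above 0 was 5 in all 36 libraries, so a name listed at 0 may stand for up to 4 reads, which correspond to 0.924 to 5.30 RPM depending on the library. miR157a-5p, a regulator of the juvenile phase, took 35.7% to 65.8% of the reads of the seedling libraries and 0.482% to 10.2% of those of the later libraries. Scaling by TMM assumes that most names keep their level. Compared with RPM, it moved the fold change of every name from seedling to pre-squaring. The shift was -1.96 and -1.94 on the log2 scale in the Gb lines and -0.98 and -0.96 in the Gh lines. The part of miR157a-5p in it was not tested. For pre-squaring to squaring the shift was -0.09 in Hai1, 0.24 in Xinhai16, -0.54 in Huazhong 94-3130 and -0.37 in line 3798. Between branch types it lay between -0.03 and 0.24, apart from 0.51 for miGb3np against miGb3WT. Markers were read from the mRNA libraries made from the same RNA. The summed level of 3 markers of green leaf was 124 to 1368 RPKM in seedlings and 20.8 to 89.6 RPKM later. Most of the seedling sum came from CotAD_07955 (a carbonic anhydrase gene), at 104 to 1357 RPKM in seedlings and 12.8 to 60.6 RPKM later. The other leaf markers did not share this fall. By mean, CotAD_58304 (ferredoxin-related) was higher at both later stages than in seedlings of the same line, apart from Gh3np. The same held for CotAD_07016 (geranylgeranyl reductase), apart from Gb2WT. All 3 markers of dividing cells had reads in each of the 12 groups, and the flower marker SEP3 had none in seedlings. Whether tissue make-up changed, and had a part in the differences between stages, was not tested. In such bulk samples fewer cells of a type and less RNA per cell cannot be told apart.

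The name under which the reads were filed differed between species and between libraries of the same group. miR2118-5p had 4892 to 20767 reads in each of the 18 Gb libraries and was listed at 0 in all 18 Gh libraries. miR2118 showed the reverse, with 501 to 2598 reads in each of the 18 Gh libraries and 0 in all 18 Gb libraries. miR2118a-3p had reads in 15 Gh libraries, all of which had miR2118 reads too. In these 15 libraries the counts of the 2 names differed by 0.0584% to 8.68% of the miR2118 count, with a median of 0.684%, and in 11 of them by no more than 1%. In miGh2WT-3, for example, 1711 reads were listed for miR2118 and 1710 for miR2118a-3p. The exceptions were miGh1WT-2, miGh3WT-3 and miGh3np-1, in which miR2118 had 670, 501 and 1420 reads and miR2118a-3p had 0. The near-equal pair was not added in the sums given here. It was added only in an alternative fit of the family sums, run as a check.

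For miR482, exactly 1 of miR482b and miR482d had reads in each of the 36 libraries: miR482b in 22 and miR482d in 14. All 6 Gb seedling libraries used miR482d, with 221 to 376 reads. The 3 libraries of miGb2WT used miR482b (895, 823 and 976 reads), and the 3 of miGb3WT used miR482d again (399, 444 and 417 reads). The groups miGb2np, miGb3np, miGh1WT and miGh1np used both names. In miGb2np, replicates 1 and 2 had 1172 and 587 reads under miR482b, and replicate 3 had 575 reads under miR482d. In miGb3np, replicates 1 and 2 had 1017 and 889 reads under miR482b, and replicate 3 had 619 under miR482d. Within these groups the libraries thus differed in the name far more than in the number of reads. All 12 Gh libraries of the later stages used miR482b, with 569 to 2756 reads.

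The remaining miR482 names had fewer reads. miR482b-3p had 21 to 83 reads in 15 Gh libraries and was listed at 0 in Gb. miR482c-3p had 169 reads in miGh1WT-1, 529 in miGh2WT-1, 450 in miGh2np-3 and 9 in miGb3np-1. Each of the 18 Gh libraries had exactly 1 of miR482b-3p and miR482c-3p. Unlike for miR482b and miR482d, the read numbers of these names differed widely within groups. In miGh2WT, 529 reads of miR482c-3p in replicate 1 stood beside 67 and 68 reads of miR482b-3p in replicates 2 and 3. Whether the same RNA was filed under both names was therefore not settled. Names with reads in 1 library and none in another of the same group were frequent in the table as a whole. Of the 302 known names that reached 200 reads in a library, 155 (51.3%) were at 0 in another library of the same group, and 4 of the 6 members with that many reads were among them. Likewise, 56 of these names (18.5%) were at 0 in all 18 libraries of a species. How reads matching several names were assigned is not given in the sources used here. The levels below are therefore given for the sum of the 4 miR482 names, and for miR2118-5p in Gb and miR2118 in Gh.

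**Figure D1:**
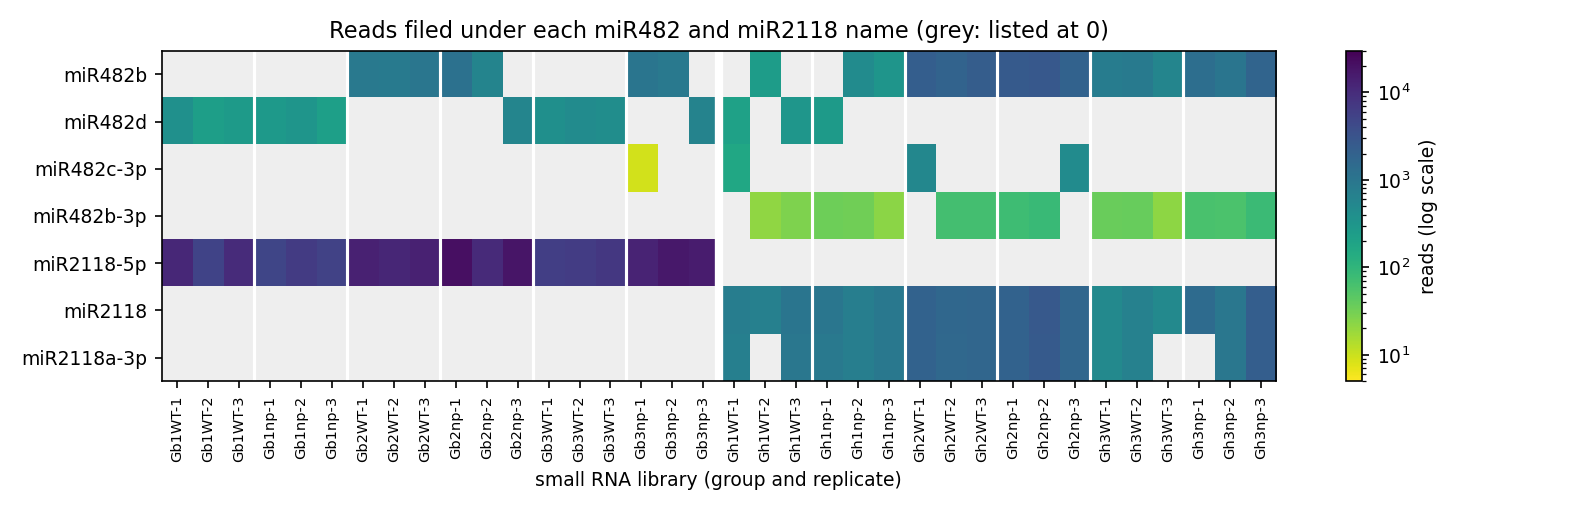
Reads filed under each of the 7 names (rows) in each of the 36 small RNA libraries (columns, 3 per group, Gb on the left and Gh on the right), on a logarithmic colour scale with grey for 0. In every library either miR482b or miR482d has reads and never both, and miR2118-5p is confined to the 18 Gb libraries as miR2118 is to the 18 Gh libraries.

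By mean RPM, the miR482 sum was lowest in seedlings and highest at the pre-squaring stage in each line, and higher in Gh than in Gb at each stage, although the pre-squaring and squaring libraries of Xinhai16 overlapped. In Gb its mean was 77.5 ± 15.6 RPM in miGb1WT, 69.9 ± 17.6 in miGb1np, 877 ± 30.5 in miGb2WT, 672 ± 278 in miGb2np, 411 ± 59.98 in miGb3WT and 637 ± 147 in miGb3np (SD, n = 3 here and below). In Gh it was 136 ± 30.4 RPM in miGh1WT, 149 ± 63.7 in miGh1np, 1774 ± 287 in miGh2WT, 2103 ± 201 in miGh2np, 932 ± 234 in miGh3WT and 1393 ± 395 in miGh3np. Ordered by mean, the 12 groups overlapped with their neighbours except at 3 places: miGb3np lay above miGb3WT, miGb3WT above miGh1np, and miGh1WT above miGb1WT with no library in common range.

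miR2118-5p was the most abundant member and ranked 22 among the 712 known names by total reads. Whether the arm in its name is the one that pairs with NBS-LRR transcripts was not tested. In Gb its mean was 2392 ± 767 RPM in miGb1WT, 1443 ± 341 in miGb1np, 12657 ± 267 in miGb2WT, 14376 ± 4273 in miGb2np, 6526 ± 1552 in miGb3WT and 11476 ± 2031 in miGb3np. In Gh, miR2118 averaged 333 ± 63.2 RPM in miGh1WT, 336 ± 23.9 in miGh1np, 1319 ± 102 in miGh2WT, 1684 ± 392 in miGh2np, 687 ± 165 in miGh3WT and 1462 ± 571 in miGh3np. In both species the seedling groups lay below all later groups, and by mean the squaring-stage WT group came next. In Gb the order was miGb2np, miGb2WT, miGb3np, miGb3WT, miGb1WT and miGb1np, of which only miGb3np and miGb3WT, and miGb3WT and miGb1WT, were neighbours without overlap. In Gh the order was miGh2np, miGh3np, miGh2WT, miGh3WT, miGh1np and miGh1WT, and the neighbours without overlap were those on either side of miGh3WT.

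**Figure D2:**
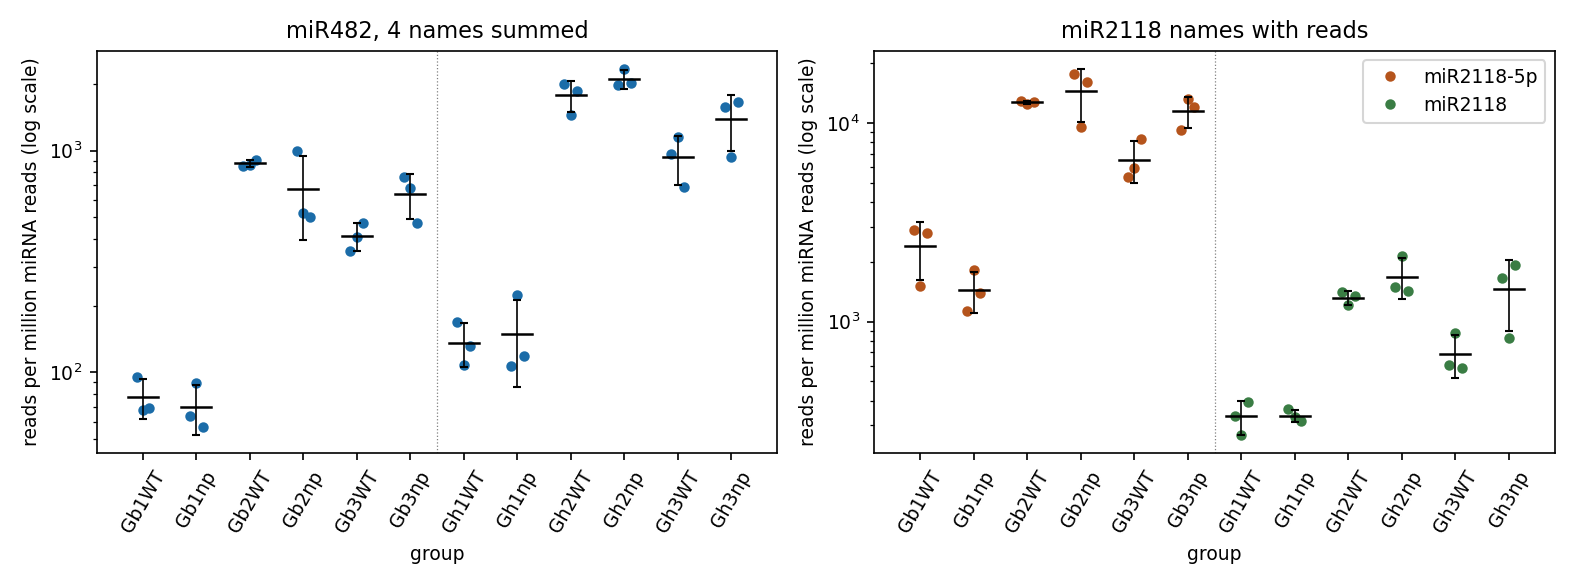
Level of the miR482 sum (left) and of miR2118-5p and miR2118 (right) in RPM on a logarithmic axis, by group. Points are libraries, horizontal bars are means of 3 and error bars are SD. Seedling groups are lowest in both panels, with the miR482 sum between 56.5 and 222 RPM in all 12 seedling libraries and at 353 RPM or more in all later ones.

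The number of miR2118 reads per miR482 read within a library does not depend on how libraries are scaled to each other. In Gb, miR2118-5p had 12.2 to 40.3 reads per read of the miR482 sum. Its mean was 30.9 ± 9.07 in miGb1WT and 20.9 ± 3.45 in miGb1np, against 14.5 ± 0.61 in miGb2WT, 22.6 ± 8.10 in miGb2np, 15.8 ± 1.57 in miGb3WT and 19.0 ± 6.57 in miGb3np. In Gh the ratio of miR2118 to miR482 was 1.49 to 3.38 in the 6 seedling libraries and 0.63 to 1.15 in the 12 later libraries, so that these ranges did not overlap. The Gh means were 2.50 ± 0.51 in miGh1WT and 2.51 ± 0.96 in miGh1np at the seedling stage, and 0.75 ± 0.07 in miGh2WT and 0.79 ± 0.11 in miGh2np at the pre-squaring stage. At the squaring stage they were 0.75 ± 0.11 in miGh3WT and 1.02 ± 0.14 in miGh3np. miR2118 was thus the more abundant of the pair in all Gh seedling libraries. Among the later Gh libraries this was so only in miGh3np-1 and miGh3np-3 (1.04 and 1.15). In Hai1 the ratio also fell with no overlap, from 22.2 to 40.3 in seedlings to 13.9 to 15.1 at pre-squaring, whereas in Xinhai16 the ranges overlapped. The ratios are not comparable between species, since the names in the 2 species differ and may stand for different arms.

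**Figure D3:**
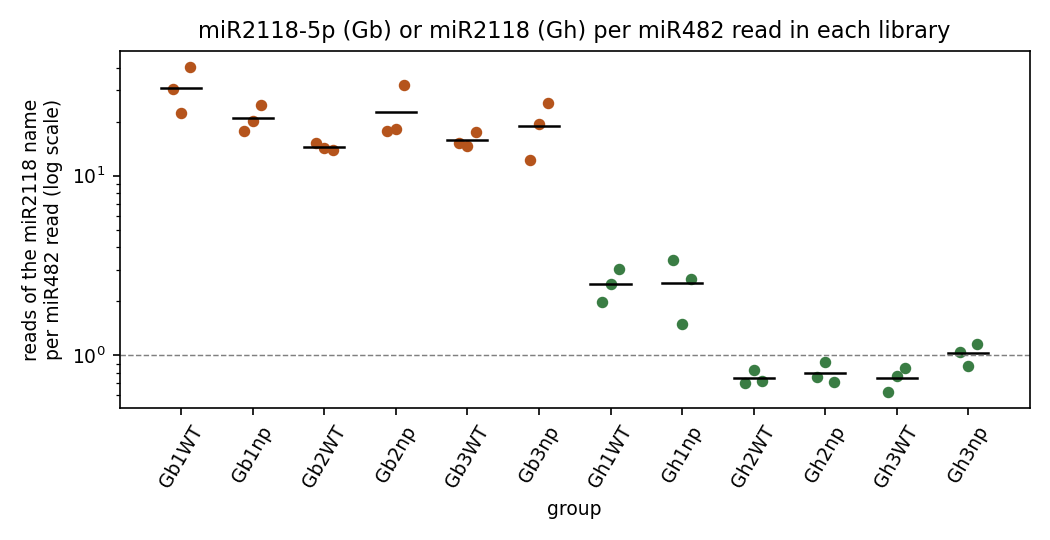
Reads of miR2118-5p (Gb, orange) or miR2118 (Gh, green) per read of the miR482 sum in each library, on a logarithmic axis, by group. The dashed line marks equal numbers. The 6 Gh seedling libraries lie at 1.49 or above and the 12 later Gh libraries at 1.15 or below.

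Comparisons between stages asked how the members change as the apex passes from vegetative growth to floral bud formation. From seedling to pre-squaring, the miR482 sum rose in line 3798, from 149 to 2103 RPM. The log2 fold change was 2.89 ± 0.24 (SE), with an adjusted p of 0.000831 in edgeR's quasi-likelihood test. The thresholds for a call were the study's, an adjusted p below 0.001 and a change of more than 1 on the log2 scale. This was the only call for a family sum in the 8 stage comparisons, in which 3.55% of all family sums tested were called, and 2.12% were called as higher in this comparison. Without any 1 of the 6 libraries of the comparison the call was lost, the fold change being 2.73 to 3.16 and the adjusted p 0.0015 to 0.00929. It was also lost with library totals in place of TMM (3.82, adjusted p = 0.0011) and with no filter on low counts (2.89, adjusted p = 0.00143). In the other 3 lines the direction was the same. In Huazhong 94-3130 the miR482 sum had a log2 fold change of 2.80 ± 0.23 with an adjusted p of 0.00136, in Hai1 1.499 ± 0.23 with 0.00424, and in Xinhai16 1.33 ± 0.36 with 0.0278. By RPM alone the increases were 14.1-fold in line 3798, 13.1-fold in Huazhong 94-3130, 11.3-fold in Hai1 and 9.62-fold in Xinhai16, and no seedling library reached any pre-squaring library of its line. Among all names with at least 60 reads in a comparison, 48.1%, 41.0%, 32.1% and 31.2% were higher without overlap by RPM in Hai1, Xinhai16, Huazhong 94-3130 and line 3798.

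The miR2118 names did not pass the thresholds in any stage comparison. The log2 fold change of miR2118 from seedling to pre-squaring was 1.35 ± 0.19 in line 3798 (adjusted p = 0.00299) and 1.01 ± 0.19 in Huazhong 94-3130 (adjusted p = 0.0101), both in edgeR. miR2118-5p changed by 1.40 ± 0.26 in Xinhai16 (adjusted p = 0.00666). In Hai1 it changed by 0.43 ± 0.30 (adjusted p = 0.329), although its RPM was 5.29-fold higher, since the shift between the scales was largest in that comparison. Its read number was 5155 to 11365 in miGb1WT and 11774 to 13586 in miGb2WT.

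From pre-squaring to squaring, both families were lower in the normal-branch lines. In Huazhong 94-3130 the miR482 sum changed by -1.47 ± 0.23 on the log2 scale (adjusted p = 0.00542) and miR2118 by -1.49 ± 0.20 (adjusted p = 0.00322, edgeR). In Hai1 the miR482 sum changed by -1.21 ± 0.09 (adjusted p = 0.00156) and miR2118-5p by -1.06 ± 0.13 (adjusted p = 0.00369). None of the 4 values met the threshold, but in each case all squaring libraries lay below all pre-squaring libraries, as was so for 9.94% of the names in Huazhong 94-3130 and 14.1% in Hai1. Between the same stages the summed leaf markers went from 27.7 to 37.2 RPKM in Gh2WT to 69.4 to 87.2 RPKM in Gh3WT, and the dividing-cell markers from 16.3 to 40.5 RPKM to 66.1 to 101 RPKM. SEP3 overlapped between these Gh groups, at 1.51 to 1.95 and 0.800 to 12.6 RPKM. In Hai1, SEP3 was at 0.111 to 1.01 RPKM in Gb2WT and 1.47 to 2.70 RPKM in Gb3WT. There the summed leaf markers overlapped (20.8 to 35.5 and 30.7 to 53.6 RPKM), as did the dividing-cell markers (19.8 to 32.4 and 31.9 to 47.8 RPKM). The part of these changes in the miRNA levels was not tested. In the nulliplex lines the values were closer to 0. In Xinhai16 the miR482 sum changed by 0.18 ± 0.39 and miR2118-5p by -0.11 ± 0.29, and in line 3798 the miR482 sum changed by -0.93 ± 0.33 and miR2118 by -0.51 ± 0.43. The smallest adjusted p of these 4 was 0.561. In line 3798 the miR482 sum was nonetheless lower by RPM without overlap, as were 5.62% of the names, and the difference between lines in this change was not tested.

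With DESeq2 in place of edgeR, which called 25.3% of the family sums in the stage comparisons, 11 of the 16 values of the 2 family sums passed the same thresholds. These were the increases from seedling to pre-squaring in all 4 lines, apart from miR2118 in Hai1, and the decreases from pre-squaring to squaring in Hai1 and Huazhong 94-3130. At the level of single names, 4 calls were made by edgeR in the stage comparisons, in which 4.73% of names were called. The share was 12.6% in Hai1 from seedling to pre-squaring and 2.27% from pre-squaring to squaring. All 4 were in Hai1: miR482d fell and miR482b rose from seedling to pre-squaring, and the reverse took place from pre-squaring to squaring. A change in the RNA and a change only in the name used for it cannot be told apart here. In each of these comparisons 1 group had all its reads under 1 name and 0 under the other, so no fold change is given.

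Comparisons between branch types asked whether the members differ between nulliplex- and normal-branch plants at a given stage. No family sum, and no member that could be tested, passed the thresholds in any of the 6 comparisons in edgeR. The filter on low counts left 2 of the 7 members in each Gb comparison, and 5, 4 and 4 in Gh at stages 1, 2 and 3. It removed miR482d in miGb2np against miGb2WT and miR482b in miGb3np against miGb3WT. The study reported both as higher in np. They had reads in 1 and 2 np libraries, respectively, and in no WT library. With no filter, edgeR called no member either. Of all names tested, 3.27% were called over the 6 comparisons (2.31% of family sums), all of them in miGb3np against miGb3WT (19.5%), and at an unadjusted p under 0.05 there were 41 to 244 names per comparison. The differences closest to the threshold were found at the squaring stage, where both families were higher in the nulliplex lines.

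miR2118-5p had 6055, 6467 and 7311 reads in miGb3WT and 12514, 17233 and 15671 in miGb3np, or 5354 to 8287 and 9242 to 13211 RPM. The nulliplex libraries were all above the normal-branch libraries, as were those of 13.5% of the names. The log2 fold change was 1.32 ± 0.15 with an adjusted p of 0.00108 in edgeR, just outside the threshold. For the miR482 sum, 399, 444 and 417 reads in miGb3WT stood against 1026, 889 and 619 in miGb3np, and the groups did not overlap, although the highest normal-branch and the lowest nulliplex library were both at 473 RPM. The log2 fold change was 1.15 ± 0.24 with an adjusted p of 0.0107. By RPM alone the log2 differences were 0.81 for miR2118-5p and 0.63 for the miR482 sum, and DESeq2 called both (log2 fold changes 1.43 and 1.27). In that test 15.9% of names and 14.6% of family sums were called as higher in miGb3np. In the mRNA libraries the 3 dividing-cell markers summed to 56.3 to 75.7 RPKM in Gb3np against 31.9 to 47.8 RPKM in Gb3WT, and SEP3 was at 5.96 to 10.6 against 1.47 to 2.70 RPKM. Their part in these differences was not tested.

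In Gh at the squaring stage, miR2118 had 503, 662 and 501 reads in miGh3WT and 1420, 943 and 2211 in miGh3np. By RPM the lowest nulliplex library (822) lay below the highest normal-branch library (877). The log2 fold change was 1.37 ± 0.40 (adjusted p = 0.0644, edgeR), and that of the miR482 sum was 0.90 ± 0.36 (adjusted p = 0.132). Here the dividing-cell markers were lower in np, at 28.7 to 39.5 RPKM against 66.1 to 101 RPKM. At the pre-squaring stage, all 3 libraries of miGh2np (1432 to 2136 RPM) lay above those of miGh2WT (1208 to 1407 RPM) for miR2118, as did those of 7.34% of the names. The log2 fold change there was 0.35 ± 0.17, with an adjusted p of 0.472. All 3 marker lists were higher in Gh2np without overlap, with dividing-cell markers at 74.6 to 98.3 against 16.3 to 40.5 RPKM, leaf markers at 68.6 to 78.6 against 27.7 to 37.2 RPKM and SEP3 at 4.70 to 13.2 against 1.51 to 1.95 RPKM, and their part was not tested. The miR482 sum differed by 0.25 ± 0.15 between the same groups. In pre-squaring Gb, miR2118-5p had a log2 fold change of 0.39 ± 0.29 and the miR482 sum of -0.17 ± 0.34, within the spread of the 3 miGb2np libraries (500 to 993 RPM for the miR482 sum). In seedlings the libraries of both branch types overlapped for both families in each species, and the log2 fold changes ranged from -0.67 for miR2118-5p to 0.08 for the miR482 sum in Gh.

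**Figure D4:**
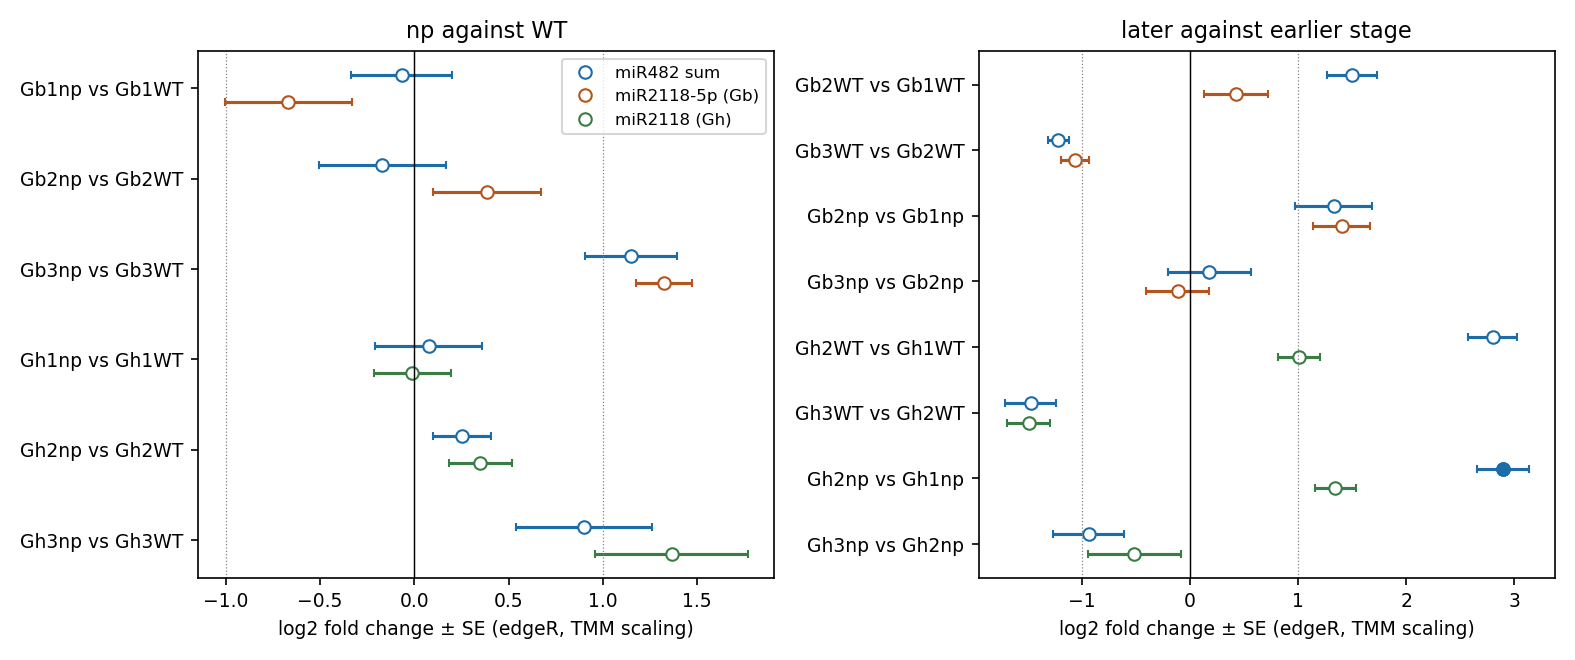
Log2 fold change with its SE for the miR482 sum (blue), miR2118-5p (Gb, orange) and miR2118 (Gh, green) between branch types (left) and between consecutive stages (right), from edgeR with TMM scaling. Filled circles passed the thresholds and open circles did not, and dotted lines mark a change of 1. The only filled circle is the miR482 sum in Gh2np against Gh1np at 2.89.

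The comparison of branch effects between species, and of the pre-squaring branch effect with that of the other stages, gave no call for any member or family sum. For the miR482 sum the smallest adjusted p over the 5 such contrasts was 0.574 in edgeR. The branch effect was 0.11 ± 0.43 larger in Gh than in Gb on the log2 scale in seedlings and 0.47 ± 0.43 at pre-squaring, and it differed by -0.32 ± 0.43 at squaring. With 1 replicate number left out these values ranged from -0.063 to 0.20, from 0.18 to 1.07 and from -0.96 to 0.028. Of all family sums, 0.0%, 0.107% and 1.07% were called in these 3 contrasts. The pre-squaring branch effect less the mean of the other stages was -0.83 ± 0.37 in Gb and -0.26 ± 0.37 in Gh, where 0.429% and 0.0% of family sums were called.

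Between species, averaged over the lines, the miR482 sum was higher in Gh at the pre-squaring stage, with 1453 to 2334 RPM in the 6 Gh libraries against 500 to 993 RPM in the 6 Gb libraries. The log2 difference was 1.61 ± 0.22 with an adjusted p of 6.87e-06 in edgeR, in a comparison in which 2.57% of family sums were called as higher in Gh. The call was lost without replicate 2 of each group (1.54, adjusted p = 0.00205), without replicate 3 (1.58, adjusted p = 0.00254) and with no filter on low counts (1.49, adjusted p = 0.0569). At the squaring stage the difference was 0.93 ± 0.22 (adjusted p = 0.00329) and in seedlings 0.19 ± 0.22 (adjusted p = 0.871). By library totals in place of TMM the miR482 sum in seedlings was 0.95 higher in Gh on the log2 scale (adjusted p = 0.00225). The sums over names were added to this comparison after the filing by name had been seen. Species and line are not separable here beyond the 2 lines per species.

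By name, miR2118-5p and miR2118 were called in opposite directions at all 3 stages. These were the 6 member calls in the species comparisons, in which 5.08%, 4.98% and 4.88% of names were called in seedling, pre-squaring and squaring apices. Taking 4 reads per library for a name listed at 0, miR2118-5p was at least 1200-fold higher in Gb seedlings, 4343-fold at pre-squaring and 2052-fold at squaring. miR2118 was at least 318-fold, 406-fold and 310-fold higher in Gh. These bounds describe the names, and since the 2 names replace each other exactly by species, they do not give a difference in the level of miR2118 as a whole. The miR2118 family sum had log2 differences of -3.21, -2.90 and -3.32 (Gh less Gb) in seedling, pre-squaring and squaring apices. It sets reads of miR2118-5p against reads of miR2118 and has the same limit.

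Other miRNA families known to target NBS-LRR genes in plants were nearly absent from the table. Of 11 such families, 3 were found (miR1507, miR1510 and miR6027), with 6 names that had reads in 1 to 7 of the 36 libraries each. miR1510a-3p had 302 reads in its only library, and miR1507b, with up to 27 reads, was found in 7 Gh libraries. Of the 6, only miR1507b had enough reads to be tested in a branch or stage comparison. It was tested in miGh1np against miGh1WT, miGh2WT against miGh1WT and miGh3WT against miGh2WT. It did not pass the thresholds (adjusted p 0.808, 0.00554 and 0.00393 in edgeR).

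In contrast, the 5 names of families that target the small RNA machinery were nearly all found throughout. miR168, which targets ARGONAUTE1, had 5277 to 25280 reads as miR168a-5p and 92 to 733 as miR168a-3p in all 36 libraries. miR162a-5p and miR162a-3p, from the family that targets DICER-LIKE1, were present in all 36 libraries too, and miR403-3p, which targets ARGONAUTE2, in 33. Of these 5 names, miR162a-5p rose in miGb3np against miGb3WT (1.67 ± 0.14, adjusted p = 0.000661, edgeR), the comparison in which miR2118-5p came closest to a call and 19.5% of names were called. miR162a-3p fell in miGb2WT against miGb1WT (-1.503 ± 0.14, adjusted p = 0.000796), where 12.6% of names were called. No other value of the 5 names passed the thresholds in the 14 comparisons.

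Among 508 other names that averaged at least 10 RPM, those with group means most like the miR482 sum on the log2(RPM + 1) scale were miR8783 (Pearson's r = 0.99 over 12 groups), miR2199 (0.96) and miR7510a (0.96). All 3 had reads in all 36 libraries. Those most like miR2118 were novel_mir_2053 (r = 1.00), miR1879 (0.99) and novel_mir_1999 (0.99), which had reads in 18, 19 and 18 libraries, so that these values chiefly reflect a name listed at or near 0 in 1 species. The group means share library scaling and the change from seedling to later stages, and are given as a description.

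NBS-LRR transcripts were measured in 36 mRNA libraries of the same RNA samples, which held about 23856000 to 28097000 uniquely assigned reads each. Of 6 NBS-LRR genes named by the study, CotAD_34619, a homologue of the resistance gene *RPP8* of *Arabidopsis*, was its predicted target of miR482d, and CotAD_59175, an NB-ARC domain gene, that of miR482b. The study listed CotAD_01114, CotAD_41567 and CotAD_20201 as targets of miRNAs outside these families. CotAD_73916 was not among its listed targets. NBS-LRR genes form a large family of similar sequences, so that reads shared between copies would be missing from uniquely assigned counts. The genes were chosen by the study on these samples, so that their direction is not independent evidence. In the 6 branch comparisons, 3 of 28 tests passed the thresholds in edgeR, all lower in Gb2np than in Gb2WT, where 4.94% of all genes were called as lower, against 2.27% called over the 6 comparisons. These were CotAD_34619, CotAD_01114 (-1.16 ± 0.15, adjusted p = 6.86e-05) and CotAD_73916 (-1.05 ± 0.18, adjusted p = 0.000656). The call of CotAD_73916 was lost without any 1 of the 6 libraries (-1.13 to -1.004 on the log2 scale).

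CotAD_34619 was very low throughout. It had 18, 14 and 14 reads in Gb2WT and 0, 1 and 0 in Gb2np, which is 0.296, 0.226 and 0.227 RPKM against at most 0.016 RPKM. The ratio of the pooled reads was 46.0 (95% exact interval 7.86 to 1858, counting error only), and the log2 fold change was -5.10 ± 0.75 (adjusted p = 0.000227, edgeR). The call was lost with any 1 library other than Gb2WT replicate 3 left out (adjusted p 0.00113 to 0.00225), while over all 6 omissions the log2 fold change was -6.96 to -4.65, the lowest value being that without Gb2np replicate 2, which had the only read. In Gb3WT it had 12, 11 and 11 reads against 3, 4 and 0 in Gb3np (-2.31 ± 0.67, adjusted p = 0.0483). In Gh it was too low to pass the filter, with 39 reads in Gh2WT against 6 in Gh2np, of which 27 were from Gh2WT replicate 3, and 57 in Gh3WT against 12 in Gh3np.

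CotAD_59175 had 2.71 ± 0.27 RPKM in Gb2WT and 1.45 ± 0.05 in Gb2np, and 2.24 ± 0.46 in Gb3WT and 0.81 ± 0.12 in Gb3np, with no overlap between the branch types at either stage, as was so for 24.5% and 16.3% of all genes with at least 60 reads in the comparison, counted in the same direction. Its log2 fold changes were -0.93 ± 0.13 (adjusted p = 0.000145, edgeR), short of the 2-fold threshold, and -1.52 ± 0.21 (adjusted p = 0.00262). In Gh the nulliplex line was lower at pre-squaring (1.65 ± 0.31 against 2.51 ± 0.38 RPKM; adjusted p = 0.0938) and higher at squaring (2.65 ± 0.05 against 1.52 ± 0.33 RPKM; adjusted p = 0.0213), neither of which passed. In seedlings its libraries overlapped between branch types in Gb and in Gh. Set beside the miRNAs, the Gb pre-squaring comparison had lower transcripts of both genes in np and a miR482 sum within the spread of the replicates, while the Gb squaring comparison had lower transcripts and a higher miR482 sum by RPM without overlap. At Gh pre-squaring both transcripts were lower in np by mean and the miR482 sum overlapped. At Gh squaring CotAD_59175 was higher in np and CotAD_34619 lower (12 against 57 reads). The miR482 sum there was higher in np by mean (1393 against 932 RPM), with overlap. The summed dividing-cell markers were also higher in np in both Gb comparisons (80.9 to 97.1 against 19.8 to 32.4 RPKM at pre-squaring, 56.3 to 75.7 against 31.9 to 47.8 RPKM at squaring). So were the 3 leaf markers as a sum (87.4 to 89.6 against 20.8 to 35.5 RPKM, and 54.5 to 60.2 against 30.7 to 53.6 RPKM). SEP3 was higher too (2.21 to 3.56 against 0.111 to 1.01 RPKM, and 5.96 to 10.6 against 1.47 to 2.70 RPKM). The part of these markers in the differences was not tested.

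CotAD_41567 and CotAD_20201 gave no call. CotAD_41567, annotated as an NBS-LRR protein, was at 0.54 ± 0.12 RPKM in Gb2np against 1.30 ± 0.40 in Gb2WT (-1.28 ± 0.28, adjusted p = 0.00333, edgeR). In Gh3np it was at 3.84 ± 0.31 RPKM against 1.57 ± 0.62 in Gh3WT (1.23 ± 0.26, adjusted p = 0.00994). CotAD_20201, a TIR-NBS-LRR gene, had 62 reads in Gb3np against 4 in Gb3WT, or 0.31 ± 0.10 against 0.02 ± 0.02 RPKM (3.75 ± 0.70, adjusted p = 0.00954). Outside the comparison in which it was called, CotAD_73916 was at 1.92 ± 0.20 RPKM in Gh2np against 0.43 ± 0.16 in Gh2WT (2.12 ± 0.30, adjusted p = 0.00983), a value of opposite sign that did not pass the threshold.

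**Figure D5:**
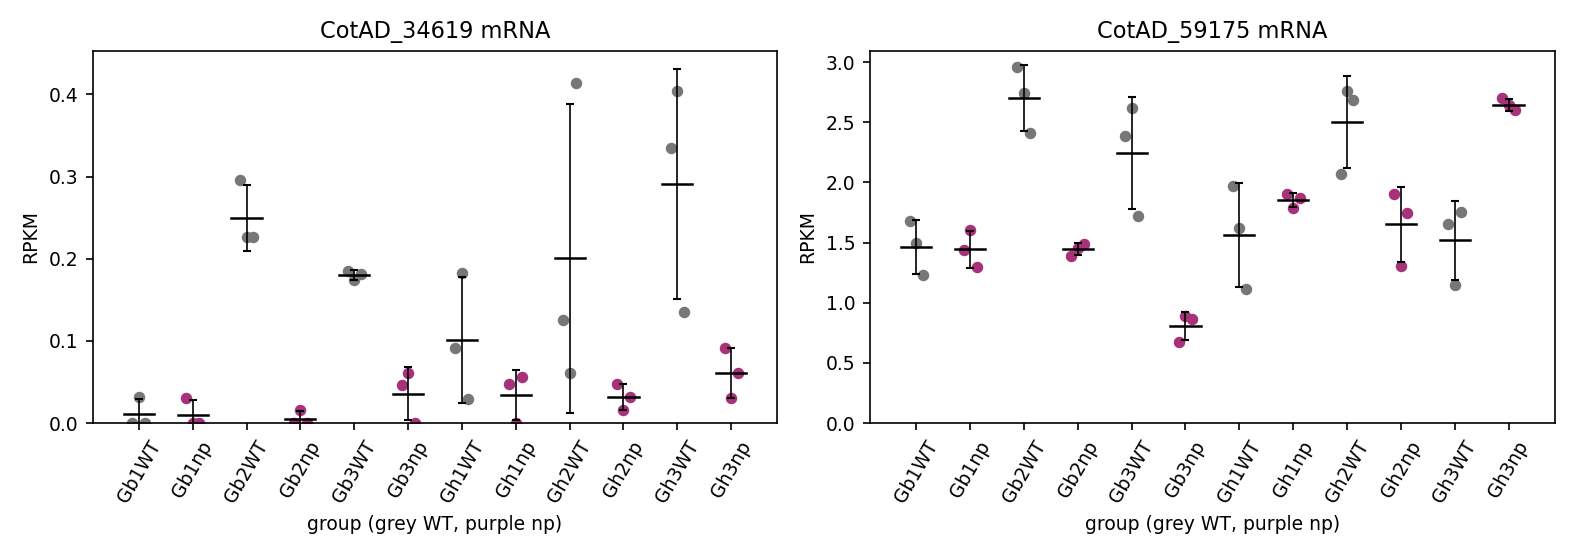
Level of the NBS-LRR transcripts CotAD_34619 (left) and CotAD_59175 (right) in RPKM in the mRNA libraries, by group, with WT in grey and np in purple. Points are libraries, horizontal bars are means of 3 and error bars are SD. CotAD_34619 stays below 0.1 RPKM in all np libraries, and CotAD_59175 is lower in Gb2np and Gb3np than in the matching WT groups.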

How the data were processed

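The deposited small RNA table holds raw read counts per miRNA name. The authors aligned trimmed reads to the *G. hirsutum* genome with SOAP, requiring perfect matches, compared them with miRBase, and predicted other miRNAs with Mireap. The deposited mRNA tables hold uniquely assigned read counts and RPKM per gene, from SOAP alignments to the same genome. RPM was computed from the total of the miRNA table, and totals of all small RNA reads per library were not used here. Counts were tested per name and per family sum (without miR2118a-3p) with edgeR 4.0.16 (TMM, quasi-likelihood, minimum count 10, Benjamini-Hochberg over all names), on the 6 libraries of a comparison, with contrasts in 1 fit of 36. DESeq2 1.42.0 and limma 3.58.1 (log2 values + 1) served as alternatives, in R 4.3.3. The tests were checked on simulated counts. Replicates were separate biological samples per the study. All members and listed genes were accounted for, and the names most like a member were the 3 with the highest correlation. The members, gene lists and marker lists were chosen with earlier results of these data known. Figures were drawn with matplotlib 3.10.9.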

Additional observations from a re-analysis of the deposited data

How the results depend on the processing

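In the branch comparisons the 0 calls among the members became 1 with DESeq2, and the 0 calls among the 2 family sums became 2, all for miGb3np against miGb3WT. In the stage comparisons the 4 member calls became 11 with DESeq2, 1 with no filter on low counts, 9 with limma and 0 with all 36 libraries in 1 fit, and the 1 family sum call became 11, 0, 8 and 2 under these settings and 4 with library totals in place of TMM. The call reported, the miR482 sum in miGh2np against miGh1np, was not among those 4, and it was lost with no filter and with the block too. For the species contrasts the 6 member calls became 19 with DESeq2, 16 with no filter and 11 with limma. The 3 NBS-LRR calls became 9 with DESeq2, 0 with limma and 6 with all 36 libraries in 1 fit. These totals include calls in other comparisons and of opposite sign. The fit of 36 libraries gave only 1 lower call in Gb2np against Gb2WT. Its others were 2 lower and 1 higher in Gb3np, 1 higher in Gh1np and 1 higher in Gh2np. DESeq2 gave 4 lower in Gb2np, 2 lower and 1 higher in Gb3np, and 1 higher in each of Gh2np and Gh3np. The settings also changed the calls over all names and genes, so these counts do not describe the members alone. Of 421 names in miGb2WT against miGb1WT, edgeR called 17 as higher and 36 as lower. DESeq2 called 60 and 73, and limma 132 and 46. Of 46495 genes in Gb2np against Gb2WT, edgeR called 2299 and 2295. DESeq2 called 2607 and 2655, and limma 1820 and 1676. Over all names in the stage comparisons, TMM gave 57 higher and 96 lower calls, and library totals gave 209 and 42. Leaving out 1 library gave 0 to 4 member calls and 0 to 1 family sum calls between stages, and 1 to 4 NBS-LRR calls.

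Small log2 differences changed sign. The miR482 sum in miGb1np against miGb1WT was 0.025 with all 36 libraries in 1 fit, and in miGb3np against miGb2np it was -0.030 with limma and -0.077 with library totals. miR2118 in miGh1np against miGh1WT was 0.030 with limma, 0.015 with library totals, 0.018 with known names only and 0.036 with all 36 libraries. With 1 library left out the miR482 sum ranged from -0.20 to 0.19 in miGb1np against miGb1WT, -0.62 to 0.039 in miGb2np against miGb2WT, -0.15 to 0.21 in miGh1np against miGh1WT and -0.11 to 0.61 in miGb3np against miGb2np. miR2118-5p ranged from -0.40 to 0.10 in the last comparison, miR2118 from -0.14 to 0.17 in miGh1np against miGh1WT, and CotAD_59175 from -0.19 to 0.050 in Gb1np against Gb1WT. With 1 replicate number left out, the difference in branch effect between species for the miR482 sum ranged from -0.063 to 0.20 in seedlings, 0.18 to 1.07 at pre-squaring and -0.96 to 0.028 at squaring, and the pre-squaring effect in Gh from -0.37 to 0.043. The cause was not tested.

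The replicate numbers did not pair the samples: correlations of same-numbered deviations were -0.19 to 0.26 in 42 pairs, and in 0 of 14 comparisons were all above 0.1. With the replicate number as a block, the stage comparisons gave 0 member and 0 family sum calls, the NBS-LRR genes gave 1 call, and miR2118 in miGh1np against miGh1WT was 0.00043. The miRNA reads per library limit names with few reads, such as miR482b-3p.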
